A study of Mus musculus with 2 samples.

Results

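Kinesin, dynein and myosin motors, the centrosome and kinetochore proteins that organise cell division, and the tubulin and actin filaments with their binding proteins were followed as 1 set of genes in the embryonic mouse cortex. The set was chosen by gene symbol, with earlier results of these data known. It covers families such as Kif, Cenp, Cep, Tuba, Tubb, Stmn, Dync, Myo and Act, and leaves out Tuba1a, Stmn1, Stmn2, Actg1, Cenpj and Cep55. It held 42 of the 2317 rows of the authors' deposited table that name a single gene and have a value above 0 in both libraries. In the RefSeq annotation 285 protein-coding symbols answer to the same rule. The share of all annotated symbols that have a row was not computed. Counts of listed symbols therefore do not show whether a class differed more often than other genes. Of the 42 genes, 41 are protein-coding and 1, Actg-ps1, is an actin pseudogene.

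Both samples were cortex of B6/129 embryos at E14.5, and both genotypes carried Nestin-Cre, a recombinase active in neural progenitors and their progeny. The Trrap-deleted sample was TrrapF/F NestinCre+, with both copies of Trrap floxed. The sample labelled wild type was TrrapF/+ NestinCre+ by its description, so it had a single floxed copy, and it is called the control here. Trrap is a scaffold of histone acetyltransferase complexes, and the series asks, by its title, how the cell cycle and histone acetylation bear on the fate of neural progenitors.

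There was 1 library per genotype, so values carry no standard deviation and no test between genotypes could be run. The table holds only loci that passed the authors' own test, with a q-value of at most 0.05, so every gene described had already been called different. A gene called not listed may be unchanged, not expressed or present under an older symbol. It may also have a row with a value of 0 in a library, since such rows were left out. Values are FPKM, which count fragments relative to the length of the transcript and the size of the library and allow levels of different genes to be compared per length. How deeply the libraries were sequenced is unknown. The genotypes could not be checked on Trrap itself, which has no row. The cortical neuron genes Neurod6 (312 FPKM in the control, 260 after deletion) and Bcl11b (37.3 and 28.0 FPKM) were present in both libraries.

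In dividing progenitors, microtubules are nucleated at the centrosomes, kinetochores tie the chromosomes to them, and mitotic kinesins slide, push and shorten them to build and then divide the spindle. In neurons, other kinesins and cytoplasmic dynein carry cargo outward and inward along axonal microtubules, and tubulin isotypes, tau and stathmins set how many microtubules there are and how stable they remain. The developing cortex holds both kinds of cell side by side.

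Most of these genes had lower levels in the Trrap-deleted library. Of the 42, 30 (71.4%) were lower and 12 (28.6%) were higher, whereas 41.6% of all 2317 rows were lower and 58.4% were higher. Their median log2 fold change, Trrap-deleted over control, was -0.62 (1.54-fold lower), against a median of 0.55 over all rows. After shifting every row so that this median became 0, 32 of the 42 were lower. That shift makes as many rows lower as higher by construction, and its median comes only from loci past the authors' test. It subtracts 0.55 from every log2 fold change, so a gene lower as deposited could not turn higher. After scaling by summed FPKM 29 of the 42 were lower, and the share over all rows was not computed for that scaling. The sums likewise cover only loci past the authors' test, members among them, and not the whole libraries. That scaling raises every log2 fold change, so a gene higher as deposited could not turn lower. Of 34 members that differed at least 1.5-fold, 25 (73.5%) were lower and 9 (26.5%) higher. Of the 1819 rows that differed by that much, 39.6% were lower and 60.4% higher. At least 2-fold lower were 5 of the 42 members, near the share over all rows (309 of 2317, 13.3%). At least 2-fold higher were 2 of the 42, beside 594 of the 2317 rows (25.6%). All members had at least 2.72 FPKM in each library. In bulk tissue, fewer cells of a type and less RNA per cell cannot be told apart.

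**Figure D1:**
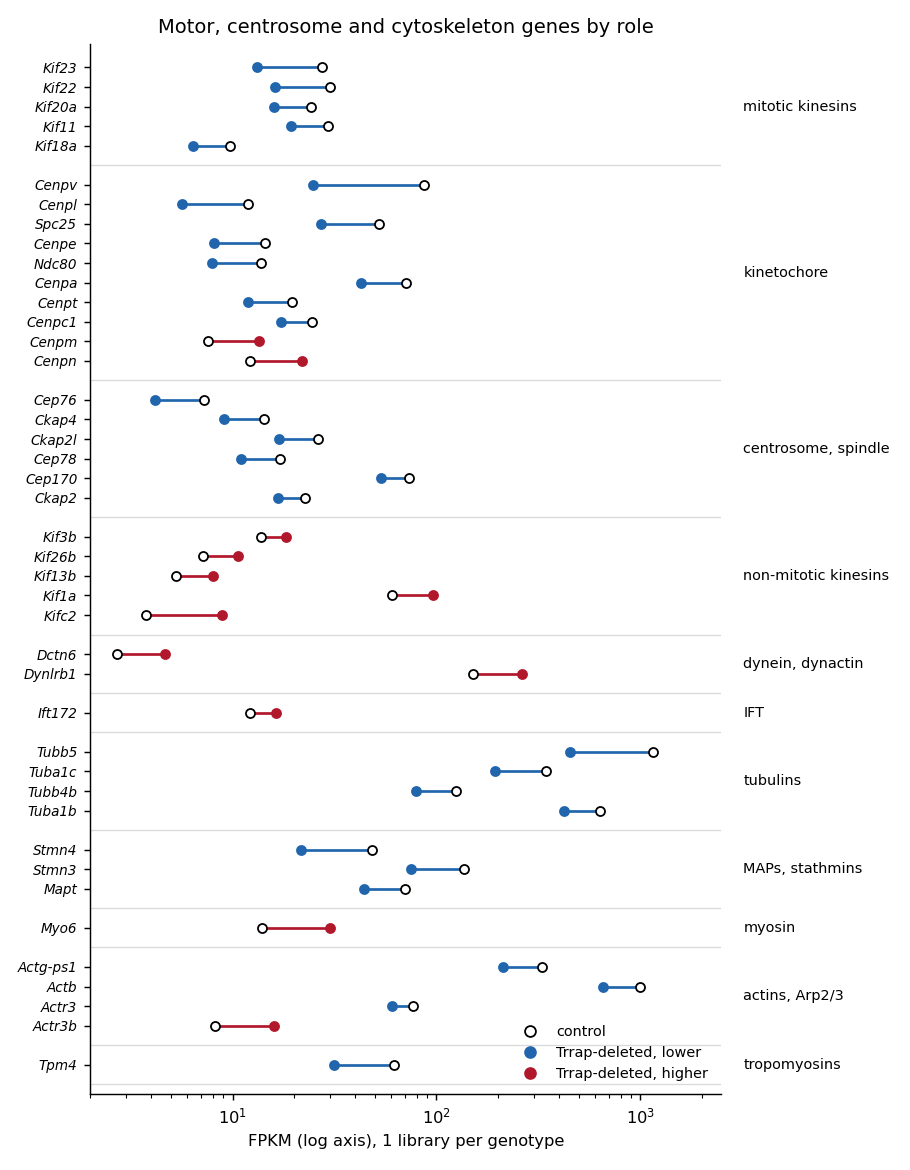
FPKM of each of the 42 genes on a log axis, grouped by role, with the control library as an open circle and the Trrap-deleted library as a filled circle (blue where lower, red where higher), 1 library per genotype. The 5 mitotic kinesins lie to the left of their control values and the 5 non-mitotic kinesins to the right.

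Mitotic kinesins were lower, and the other listed kinesins were higher as deposited. Of 13 annotated mitotic kinesins 5 were listed, and all 5 were lower as deposited and after scaling by summed FPKM. Of 35 annotated transport and ciliary kinesins and kinesin light chains 5 were listed, and all 5 were higher as deposited, with a median log2 fold change of 0.61. They are called non-mitotic kinesins here, since 1 of them, Kif26b, is atypical and not known as a cargo motor; without it 4 of 4 were higher. When the median of all rows was set to 0 their median became 0.057, with Kif3b lower (-0.14), Kif26b, Kif13b and Kif1a near 0 (0.021, 0.057 and 0.12) and Kifc2 at 0.68. Among rows in the same range of mean FPKM as the mitotic kinesins (8.07 to 24.4), 40.6% were lower. In the range of the non-mitotic kinesins (6.30 to 78.5), 56.6% were higher. The summed FPKM of the 5 mitotic kinesins went from 121 to 71.1, that of the 5 non-mitotic kinesins from 90.3 to 142, and the second sum over the first from 0.747 to 2.00.

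Kif23, the motor subunit of centralspindlin that bundles the midzone and is needed for cytokinesis, had 27.4 FPKM in the control and 13.2 after Trrap deletion (chromosome 9, 61765083 to 61794606 on mm9). It was the mitotic kinesin with the largest difference, 2.07-fold lower. Kif22, which pushes chromosome arms away from the poles, went from 30.01 to 16.2 FPKM (1.86-fold lower). Kif11, the tetrameric motor that pushes the poles apart, had 29.5 and 19.4 FPKM and was 1.52-fold lower.

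The other two mitotic kinesins differed by nearly the same factor as Kif11. Kif20a, which brings the chromosomal passenger complex to the midzone, had 24.4 and 16.0 FPKM (1.53-fold lower). Kif18a, which shortens kinetochore microtubules and aligns chromosomes, had 9.74 and 6.398 FPKM (1.52-fold lower). The listed locus was 8.32 times as long as the annotated gene for Kif20a and 4.09 times for Kif18a, so reads of neighbouring genes may be counted there and both values are uncertain. Without such rows the mitotic kinesins were 3 lower of 3. Others of the group, among them Kif4, Kif15, Kif20b and Kifc1, were not listed.

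Among the non-mitotic kinesins Kif1a was the most abundant. This carrier of synaptic vesicle precursors had 60.4 FPKM in the control and 96.5 in the deleted cortex, 1.60-fold higher (chromosome 1, 94911548 to 94998468 on mm9). In the authors' deposited table it had the smallest q-value of the 12 higher members, 1.86e-10. Kifc2, a motor with its motor domain at the C-terminal end that is expressed in neurons, went from 3.75 to 8.84 FPKM (2.35-fold higher), at a locus 2.95 times as long as the annotated gene. The remaining 3 were closer to the control. Kif13b had 5.28 and 8.05 FPKM, and Kif26b, an atypical kinesin without ATPase activity, had 7.13 and 10.6 FPKM. Kif3b, a subunit of the heterotrimeric kinesin that drives cargo into cilia and axons, had 13.7 and 18.3 FPKM (1.33-fold higher). The light chain genes and the conventional kinesins Kif5a, Kif5b and Kif5c were not listed.

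Genes of the kinetochore were lower in 8 of 10 listed cases. The kinetochore is built on nucleosomes that contain Cenpa, through an inner network of Cenp proteins and an outer layer that holds the microtubule. The median log2 fold change of the 10 was -0.76. Scaling by summed FPKM left the 8 lower, and setting the median of all rows to 0 left the other 2 higher. Cenpa, the centromeric histone H3 variant, had 70.6 FPKM in the control and 42.8 in the deleted cortex (1.65-fold lower). Its locus was 1.87 times as long as the annotated gene, and that of Cenpt 2.34 times, so these 2 values are uncertain.

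In the outer layer, the 2 listed subunits of the tetrameric Ndc80 complex, the main microtubule anchor, were lower by similar factors. Spc25 had 52.5 and 27.2 FPKM (1.93-fold lower) and Ndc80 had 13.9 and 7.96 FPKM (1.74-fold lower). The ratio of Ndc80 to Spc25 was 0.264 in the control and 0.293 in the deleted cortex, and the partners Nuf2 and Spc24 were not listed. Cenpe, a kinesin that carries chromosomes to the spindle equator, had 14.4 and 8.15 FPKM (1.77-fold lower), with a q-value of 3.00e-08 in the authors' deposited table.

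The inner network was divided. Cenpc1, which encodes the protein that binds the Cenpa nucleosome, had 24.5 and 17.3 FPKM, and Cenpt, which recruits the Ndc80 complex, had 19.7 and 11.9 FPKM. Cenpl went from 11.97 to 5.63 FPKM (2.13-fold lower), while Cenpn went from 12.2 to 22.0 FPKM (1.80-fold higher). The proteins of Cenpl and Cenpn form a heterodimer that contacts the Cenpa nucleosome. Their transcripts were at a ratio of 0.977 in the control and 0.256 in the deleted cortex. Cenpm, another inner subunit, went from 7.61 to 13.5 FPKM (1.78-fold higher). Cenpl lies at chromosome 1, 163000898 to 163016855, and Cenpn at chromosome 8, 119445579 to 119465420 (mm9), each about as long as its annotated gene. Cenpv, which acts in centromere organisation, had the largest difference of all members, from 86.5 to 24.7 FPKM (3.50-fold lower, chromosome 11, 62338443 to 62352763).

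The promoters of the members were read for the letters of 2 elements that recur upstream of genes of late cell cycle. These are the cell cycle genes homology region (CHR, TTTGAA) and the CCAAT box (CCAAT), both counted on either strand, alone or together, in windows from 250 bases before to 50 bases after the RefSeq start (GRCm38.p6). RefSeq windows were matched by symbol for 32 members. Those without one were Kif20a, Cep76, Kif13b, Kifc2, Dctn6, Stmn4, Mapt, Actg-ps1, Actb and Actr3b. The CHR letters stood in 17.9% of all 32851 windows and the CCAAT letters in 37.4%, with both in 7.0%. In the 19 windows of kinetochore, mitotic kinesin and centrosome members, leaving out Ckap4, the shares were 57.9%, 63.2% and 47.4%. In the 15 windows of members outside these classes they were 26.7%, 46.7% and 13.3%.

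Before the start, 8 members had both elements, 6 of them lower and 2 higher. Shown are the partners Cenpl (lower) and Cenpn (higher), the lower members Kif11 and Ckap2l, and the higher member Kif26b, since the same letters stand upstream of genes that differed in opposite directions. Each line is the strand of the gene, 5′ to 3′, on GRCm38.p6, with the CHR and CCAAT letters in capitals (TTCAAA and ATTGG are the same elements read on the other strand).
Cenpl, chr1:161070595-161070699, plus strand: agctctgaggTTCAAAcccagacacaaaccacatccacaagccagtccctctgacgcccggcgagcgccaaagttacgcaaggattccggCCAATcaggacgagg
Cenpn, chr8:116921712-116921739, plus strand: ccgagcggccATTGGcggcTTCAAAagc
Kif11, chr19:37376327-37376378, plus strand: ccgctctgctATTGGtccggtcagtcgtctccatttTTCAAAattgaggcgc
Ckap2l, chr2:129297227-129297262, minus strand: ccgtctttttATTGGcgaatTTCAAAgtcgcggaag
Kif26b, chr1:178529042-178529124, plus strand: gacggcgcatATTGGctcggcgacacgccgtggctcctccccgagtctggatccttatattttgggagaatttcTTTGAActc
In Cenpn the CHR letters began 9 bases before the start and in Cenpl 162 bases before it. In Kif11 and Ckap2l they began 19 and 30 bases before it, and in Kif26b 9 bases. A match of letters is a description and not a sign of binding.

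Centrosome and spindle genes were lower in 5 of 5 listed cases, as deposited and after scaling by summed FPKM. The symbol rule put a sixth gene, Ckap4, in the same class, which has 60 annotated symbols. The median log2 fold change was -0.63 with and without it. Cep170, a marker of the appendages of the older centriole, was the most abundant, with 73.3 FPKM in the control and 53.5 in the deleted cortex (1.37-fold lower). The other 2 centriolar genes were weaker. Cep76, which limits centriole duplication, had 7.24 and 4.16 FPKM (1.74-fold lower), and Cep78 had 17.1 and 11.05 FPKM (1.55-fold lower). Ckap2l, a spindle protein of neural progenitors, had 26.2 and 16.9 FPKM at a locus 1.75 times as long as the annotated gene. Its relative Ckap2, which stabilises spindle microtubules, had 22.7 and 16.8 FPKM (1.36-fold lower). Ckap4, which encodes a membrane protein of the endoplasmic reticulum that binds microtubules, had 14.3 and 9.06 FPKM. No augmin subunit (Haus) and no gamma-tubulin was listed, nor was Tpx2.

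Together the mitotic kinesin, kinetochore and centrosome classes held 21 of the 42 members, 19 of them lower and 2 higher, or 18 and 2 without Ckap4. In the range of mean FPKM that the 21 span (5.70 to 63.4), 42.0% of all rows were lower. The other 21 members were 11 lower and 10 higher. A list of 54 spindle and kinetochore genes with other symbols gave 8 listed, all 8 lower, with a median of -0.70. The largest differences were in Psrc1, a spindle microtubule protein (29.7 to 10.9 FPKM), Ska1, of the complex that couples kinetochores to shortening microtubules (7.66 to 4.13 FPKM), and Nde1, a dynein regulator (45.9 to 26.3 FPKM). The proliferation marker Mki67 went from 70.2 to 43.1 FPKM in the same libraries.

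**Figure D2:**
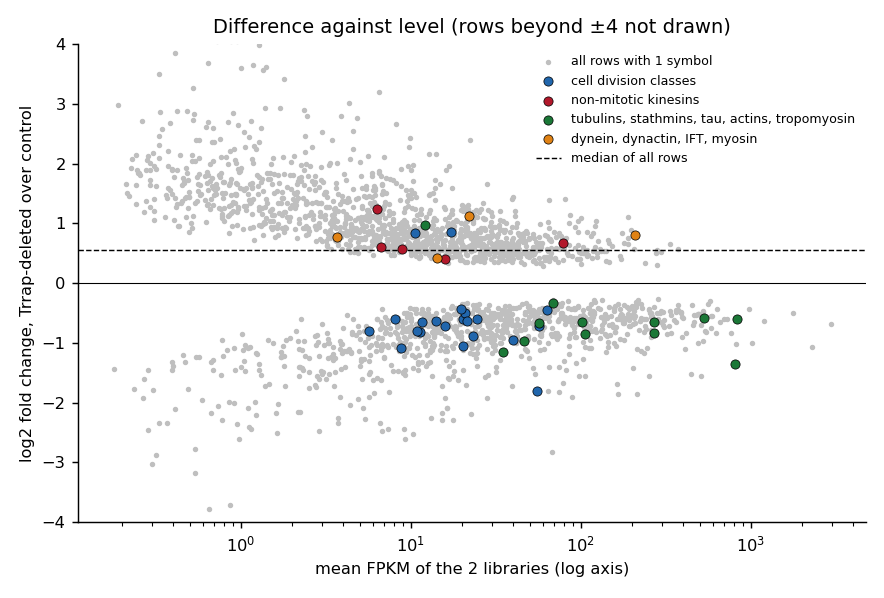
Log2 fold change (Trrap-deleted over control) against mean FPKM on a log axis for all rows with 1 symbol (grey) and for the 42 genes by role (coloured), with the median of all rows as a dashed line. The empty band around 0 reflects that only loci past the authors' test are in the table. Most genes of cell division lie below 0 at levels where grey points lie on both sides.

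Tubulins were the most abundant class and all 4 listed genes of 15 annotated were lower. Alpha- and beta-tubulin pair to form the microtubule itself. Their summed FPKM went from 2258 to 1147, and their median log2 fold change was -0.75. Rows this abundant were mostly lower in any case: in the range of mean FPKM that the 4 span (102 to 804), 82.0% of all rows were lower. Tubb5, the beta-tubulin that is abundant in progenitors, had 1156 FPKM in the control and 452 in the deleted cortex, 2.56-fold lower (chromosome 17, 35970836 to 35975251 on mm9). Tubb4b had 125 and 79.0 FPKM, at a locus 2.34 times as long as the annotated gene. Tuba1c had 345 and 193 FPKM (1.79-fold lower) and Tuba1b had 633 and 423 FPKM (1.496-fold lower).

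The listed beta-tubulin rows differed by unequal factors. A row shared by Tubb2a and Tubb2b, which was no member, had 1351 and 927 FPKM. Of the summed FPKM of these 3 beta-tubulin rows, Tubb5 made up 43.9% in the control and 31.0% in the deleted cortex. The Tubb2a and Tubb2b row made up 51.3% and 63.6%, and Tubb4b 4.73% and 5.42%. For the alpha-tubulins, with Tuba1a (3115 and 1491 FPKM) included, Tuba1b was 15.5% and 20.1% of the sum and Tuba1c 8.43% and 9.16%. Tuba1b, Tuba1a and Tuba1c lie within 107 kb of each other on chromosome 15 and are very similar in sequence, so reads may have been divided between them and their separate values are uncertain. Tubb3, the neuronal beta-tubulin, was not listed, so these are shares among rows that passed the authors' test and not of all tubulin.

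Tau and the listed stathmins were lower. Mapt, which encodes the axonal microtubule protein tau, had 70.3 FPKM in the control and 44.1 in the deleted cortex (1.60-fold lower). Stathmins hold free tubulin dimers and favour microtubule shortening. Stmn4 had 48.4 and 21.7 FPKM (2.23-fold lower) and Stmn3 had 136 and 75.1 FPKM (1.81-fold lower). Stmn3 lies in the range of mean FPKM of the tubulins, where 82.0% of all rows were lower. The table uses the older prefix Mtap for most microtubule-associated proteins, which the symbol rule did not take. In a list of 62 other microtubule regulators 16 were listed, 10 lower and 6 higher, beside 41.6% of all rows lower. Dpysl3 (374 to 127 FPKM), Dpysl4 (31.1 to 14.6 FPKM) and the doublecortin-like kinase gene Dclk1 (40.6 to 21.3 FPKM) were the largest decreases. Ttll7, a tubulin polyglutamylase (4.70 to 21.0 FPKM), Mtap7, a kinesin cofactor (0.776 to 2.05 FPKM), and Mtap7d2 (6.29 to 12.5 FPKM) were the largest increases from 1 FPKM upward.

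Dynein, dynactin and cilium genes were few and higher as deposited. Of 25 annotated dynein and dynactin symbols 2 were listed. Dynlrb1, the roadblock light chain of dynein, had 152 FPKM in the control and 263 in the deleted cortex (1.74-fold higher). Its locus is 8.80 times as long as the annotated gene and is also that of the Map1lc3a row (28.7 and 54.7 FPKM), so the division of reads between them is uncertain. Dctn6, a dynactin subunit, had 2.72 and 4.66 FPKM (1.71-fold higher, chromosome 8, 35153474 to 35171850 on mm9). Ift172, a subunit of the train that moves tubulin into the primary cilium, had 12.2 and 16.3 FPKM. This was a 1.33-fold difference, the same factor as for Kif3b, whose protein drives that train. Ift172 and Kif3b were the only members that turned from higher to lower when the median of all rows was set to 0 (log2 -0.14 each). The dynein heavy chain gene Dync1h1 was not listed. Of 33 cargo adaptors of these motors 5 were listed, 4 higher and 1 lower as deposited, beside 58.4% of all rows higher. Hap1, which links huntingtin to motors, went from 21.5 to 57.0 FPKM, Fez2 from 8.71 to 15.2, and Mapk8ip1 from 41.6 to 63.2. Hook3, an activator of dynein, was the lower one (19.2 to 13.4 FPKM).

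A shared row of Mapre3, which encodes a protein of growing microtubule ends, and Tmem214 had 40.7 and 72.9 FPKM and was no member, since 2 genes share it.

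**Figure D3:**
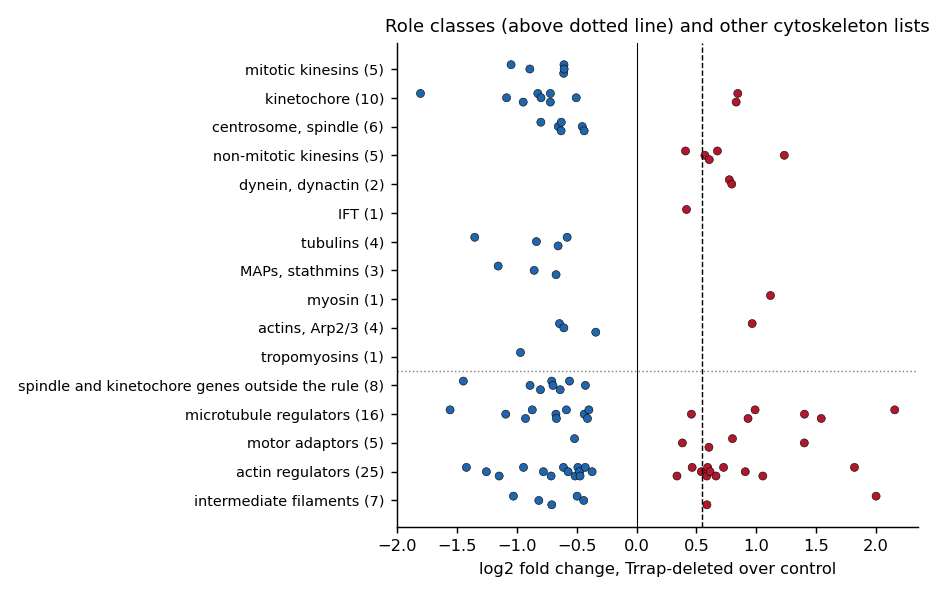
Log2 fold change (Trrap-deleted over control) of each listed gene, with the 42 genes by role above the dotted line and lists of other cytoskeleton genes below it, the number of genes in brackets. The dashed line is the median of all rows, 0.55. Spindle genes lie to the left above and below the dotted line, whereas actin and microtubule regulators lie on both sides.

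Actb and the pseudogene Actg-ps1 were lower, and the 2 Arp3 paralogs went opposite ways. Actb, cytoplasmic beta-actin, had 1001 FPKM in the control and 656 in the deleted cortex (1.52-fold lower). Its ratio to Actg1, which was no member, was 0.684 and 0.699. The pseudogene Actg-ps1 had 331 and 212 FPKM over a locus of 408 bases. Such reads can also belong to the intact actin genes, so its value is uncertain. Its mean of 271 FPKM lies in the range of the tubulins (102 to 804), where 82.0% of all rows were lower. The mean of Actb, 829 FPKM, lies just above that range. Arp3 is a core subunit of the Arp2/3 complex, which starts branched actin filaments. Actr3, the common form, had 76.8 and 60.6 FPKM (1.27-fold lower), and its log2 difference became 0.0048 after scaling by summed FPKM. Actr3b, the form enriched in brain, had 8.18 and 16.0 FPKM (1.95-fold higher, chromosome 5, 25265788 to 25356509 on mm9). The ratio of Actr3 to Actr3b was 9.39 in the control and 3.79 in the deleted cortex. No Arpc subunit and no actinin was listed.

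Myo6 and Tpm4 were the only members of their families in the table. Myo6, the myosin that walks toward the pointed end of actin and acts in endocytosis, had 13.9 and 30.2 FPKM (2.17-fold higher, chromosome 9, 80012838 to 80159536 on mm9). Tpm4, a tropomyosin of non-muscle actin, had 61.6 and 31.4 FPKM (1.96-fold lower), at a locus 1.72 times as long as the annotated gene. None of 25 annotated conventional myosin heavy and light chain genes and none of 7 spectrin genes was listed under its annotated symbol. A row under an older symbol would have been missed. Of 100 actin regulators 25 were listed, 14 lower and 11 higher, beside 41.6% of all rows lower. This split became 17 and 8 with the median of all rows at 0, and 7 and 8 among those that differed at least 1.5-fold. The largest decreases were in Tmsb10, a thymosin that holds actin monomers (294.5 to 109.8 FPKM), Pdlim1 (3.56 to 1.49 FPKM) and the crosslinker gene Flna (195 to 88.0 FPKM). The largest increases were in the severing protein gene Gsn (0.692 to 2.45 FPKM), Flnc (2.32 to 4.82 FPKM) and Lima1 (13.8 to 25.9 FPKM). Of 21 intermediate filament genes and their linkers 7 were listed, 5 lower and 2 higher, beside the same 41.6% of all rows lower. Vim, the filament of radial glia, went from 632 to 387 FPKM and the lamin gene Lmnb1 from 204 to 116. Prph went from 1.43 to 0.699 FPKM, while the nuclear envelope linker gene Syne1 (0.372 to 1.49 FPKM) and the neurofilament gene Nefm (5.26 to 7.91 FPKM) were higher.

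Higher members had longer listed loci and lower levels than the members that were lower. Listed loci were longer than the annotated gene for some members of both directions, and medians by annotated length were not computed. The median listed locus was 64.5 kb for the 12 higher and 21.0 kb for the 30 lower members, beside 35.1 kb and 20.9 kb over all rows. Across the 42 genes Spearman's rho of log2 fold change with locus length was 0.48, and Pearson's r with log10 length was 0.41. Over all 2317 rows they were 0.15 and 0.19. Without the 10 members of uncertain assignment rho was 0.54 (n = 32). The median of mean FPKM was 13.2 for the higher and 29.7 for the lower members, and 8.71 and 26.1 over all rows. Spearman's rho of log2 fold change with mean FPKM was -0.27 across the 42 genes and -0.42 over all rows, where it was larger in size than that with length. All points share the same 2 libraries, and genes are not independent replicates. The longest lower loci with a length near the annotated gene were those of Mapt and Cep170 (101 and 84.6 kb), and the longest higher locus was that of Kif26b (410.4 kb).

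**Figure D4:**
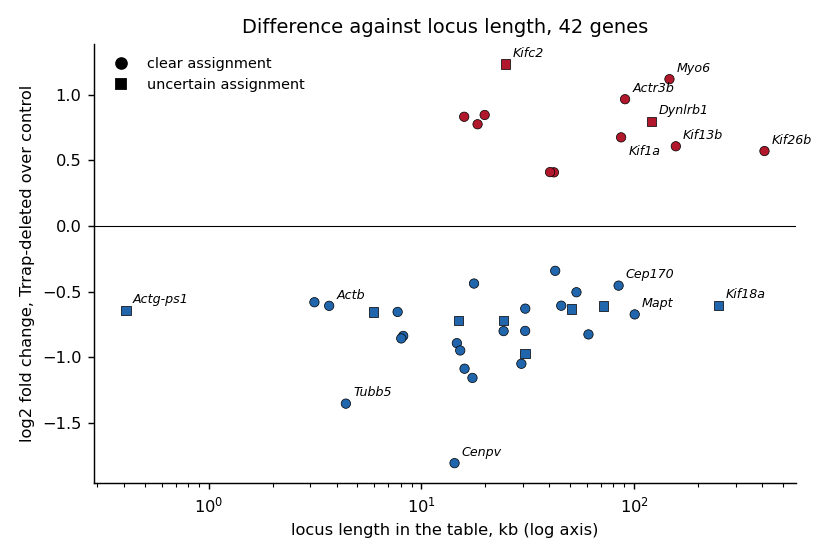
Log2 fold change (Trrap-deleted over control) of the 42 genes against the length of their locus in kb on a log axis, blue where lower and red where higher, with squares for the 10 of uncertain assignment. Listed loci under 15 kb are all of lower genes, and the longest is that of Kif26b at 410.4 kb. By annotated length the higher genes Kifc2 (8413 bases), Cenpm (11012 bases) and Dynlrb1 (13745 bases) are also under 15 kb.

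Few members or genes left out by symbol lay close together, and the only pair made of members alone went opposite ways. The share of neighbouring rows that went the same way in the whole table was not computed. Tuba1b, Tuba1a (no member) and Tuba1c on chromosome 15 were all lower, with log2 fold changes of -0.58, -1.06 and -0.84. Reads may have been divided between these similar genes. Kif11 and Cep55, which was no member, lie 633 kb apart on chromosome 19 and had log2 fold changes of -0.61 and -0.60. Cenpa and Ift172 lie 569.99 kb apart on chromosome 5 and went opposite ways, with -0.72 and 0.41. The 42 genes came from 14 chromosomes, and 0 of them from a sex chromosome.

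Markers of other cells also differed between the 2 libraries. Of 17 microglial genes 10 were listed, all higher, with a summed FPKM of 12.6 in the control and 32.4 in the deleted cortex. Of 13 meningeal genes 6 were listed, all higher (sum 2.96 and 16.4), as were 2 of 11 smooth muscle and pericyte genes (2.07 and 4.24) and 1 of 14 erythroid genes (96.8 and 157). None of 20 striated muscle genes was listed. Of 14 genes of ciliated ependyma and choroid plexus 2 were listed, Ttr higher and Tekt1 lower (sum 1.04 and 3.44). Of 12 ventral telencephalic genes 3 were lower and 1 higher (sum 18.9 and 15.8). Of 12 progenitor genes 4 were listed, all lower (792 and 481), and of 12 neuronal genes 2, both lower as deposited (349 and 288), but 1 lower and 1 higher after scaling by summed FPKM. The 5 rows with 1 symbol and a value of 0 in a library had been left out. A marker among them would count as not listed. The Y-linked gene Eif2s3y had 0.111 and 32.8 FPKM and Xist 313 and 142. The part of these differences in the results above was not tested, and with 1 library each they cannot be told apart from genotype.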

How the data were processed

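RNA-seq of embryonic cortex was analysed in 2 libraries, 1 per genotype, from 2.5 µg of total RNA each, per the labels' protocols. Alignment with TopHat2 to mm9 is named in the submitters' processing notes; the counting and testing software and the use of strand are not stated in the labels or the file. The deposited values were read as FPKM, from the layout of the file header, which does not name the unit. The p-value and q-value are the authors' deposited results. Columns of per-sample values left unused numbered 0.

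Log2 fold changes were computed here without a pseudocount and differed from the log2 column as deposited by at most 9.37e-06. Members and lists were chosen with earlier results of these data known. Role classes, lists and the rule for named genes were written down by symbol: in each class up to 4 largest differences each way and the most abundant gene, and in each list the 3 largest each way from 1 FPKM upward. Psrc1 and other list genes follow that rule; Mki67, the marker genes and the genes called not listed were chosen afterwards. Loci are on mm9, 1-based. RefSeq (GRCm38.p6) gave gene types and lengths by symbol for 42 of 42 members. A member was called uncertain where its locus was over 1.5 times as long as the annotated gene, where it is a pseudogene or where it overlapped another row (10 members). Code was tested on simulated data (Python 3.11.15, pandas 2.3.3, scipy 1.17.1). Alternatives were other scalings, thresholds, a pseudocount and 1 row a symbol. Rows naming several genes (59) did not enter.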

Additional observations from a re-analysis of the deposited data

How the results depend on the processing

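No paired analysis was possible because each genotype had 1 library, and no replicate could be left out. Shifting the median of all rows to 0 (a log2 shift of 0.55) gave medians of -1.17 for all members, -1.16 for mitotic kinesins, -1.31 for kinetochore, -1.18 for centrosome, -1.21 for all cell division classes, -1.41 for tau and stathmins and -1.03 for actins. Non-mitotic kinesins then had a median of 0.057 with 1 lower, Kif3b (log2 -0.14), and Ift172 was also at -0.14. Scaling by summed FPKM gave -0.27 for all members, -0.26 for mitotic kinesins, -0.28 for centrosome, -0.31 for cell division, -0.40 for tubulins and -0.51 for tau and stathmins, and 2 actin-class genes were higher, with Actr3 at 0.0048. At a q-value under 0.01, 19 members were lower: 3 mitotic kinesins, 4 kinetochore and 3 centrosome genes, 10 in these cell division classes together, where 1 gene, of the kinetochore, was higher. With a pseudocount of 1 the medians were -0.58 for mitotic kinesins and -0.60 for cell division. At 1.5-fold or more 3 non-mitotic kinesins were higher. Without rows of uncertain assignment, an alternative chosen after seeing the data, 3 mitotic kinesins were lower and none was higher. Without Ckap4 and Kif26b, chosen likewise, 29 members were lower and 11 higher. The share of members lower lay between 68.8% and 76.2% over all alternatives, beside 71.4%. Depth is unknown, so no detection limit could be set.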
